A study of Mus musculus with 6 samples.

Results

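The genes described here encode the alpha chains of collagens. A gene was a member when its single symbol in the array's annotation was Col, a number, the letter a and a number, and 44 of the 19938 genes with a single symbol met this rule. The probe set with the highest mean signal over all 6 arrays stood for each gene, which mattered for Col6a5 and Col6a6 because the 44 genes had 46 probe sets. By structure, 11 members are fibrillar, 6 form the type IV network of basement membranes, 2 are multiplexins of the basement membrane zone and 1 forms anchoring fibrils. A further 7 form beaded filaments, 3 form short chain networks, 9 are FACIT collagens that sit on the surface of fibrils, 4 span the plasma membrane, and Col26a1 was kept apart.

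Collagen chains are made in the endoplasmic reticulum, where prolines and lysines are hydroxylated before chains wind into a triple helix. Fibrillar procollagens are trimmed outside the cell and cross-linked by lysyl oxidases, while type IV collagen keeps its ends and joins into a sheet. In the aorta, type I and type III fibrils made by smooth muscle cells and adventitial fibroblasts carry tension, and type IV collagen surrounds smooth muscle cells and underlies the endothelium.

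The samples were total RNA from aortae of mice aged 6 weeks, hybridised to one-colour Affymetrix arrays. One group of 3 arrays was labelled as the Trail knockout, supplied by Amgen, and the other 3 as wild type. The strain of both was given as C57Bl6/J. Trail, encoded by Tnfsf10, is a cytokine that can trigger cell death through its receptors. The sources used here do not say whether a sample pooled animals, so the p-values cover only how these 6 samples varied.

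All levels below are log2 signals, on which 1 unit is a 2-fold change, and probe sets of different genes are not compared in level. Array medians lay between 6.34 and 6.47 over the 23410 annotated probe sets. The array labelled wild type 1 stood apart, with a Pearson r across probe sets of 0.899 to 0.907 with the others, which reached 0.974 to 0.996 among themselves. Tnfsf10 gave 8.42 on that array and 4.09 to 5.02 on the other 5, so it did not separate the arrays labelled wild type 2 and 3 from the knockout arrays, and directions between genotypes follow the labels. The median of the smooth muscle markers ran from 9.38 to 10.51 over the 6 samples, and the smooth muscle myosin gene Myh11 lay between 11.21 and 12.02. Markers of other tissues were also high. All 10 skeletal muscle and all 10 squamous epithelium markers were over 2-fold lower on the array labelled wild type 1 than on every other, with list medians of 5.79 and 5.01 there against at least 11.65 and 10.48. In the other direction, 6 of 7 brown fat, 7 of 7 fat storage and 5 of 10 endothelial markers were over 2-fold higher there than on every other array. Stomach markers had a median of 12.43 on the array labelled knockout 2 and 7.27 or less elsewhere, and lung epithelial markers 7.11 on the array labelled knockout 1 and 5.40 or less elsewhere. In bulk RNA, fewer cells of a type and less RNA per cell cannot be told apart.

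The array labelled wild type 1 set 3 of the 44 collagen genes apart by over 2-fold from every other array. Col18a1 was above, and Col17a1 and Col8a1 were below. The background was 4.73% of the 19938 genes above and 4.74% below, so the members' shares were close to it. Without the 2-fold limit, 5 members were highest on that array, namely Col4a1, Col4a2, Col15a1, Col18a1 and Col23a1, and 16 were lowest on it. These are 11.4% and 36.4% of the members, against 33.4% and 24.6% of all genes. On the other 5 arrays no member spanned more than 1 unit, and 35 of 44 spanned less than 0.5. The median span over these 5 arrays was 0.385 for the members and 0.369 over all genes.

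**Figure D1:**
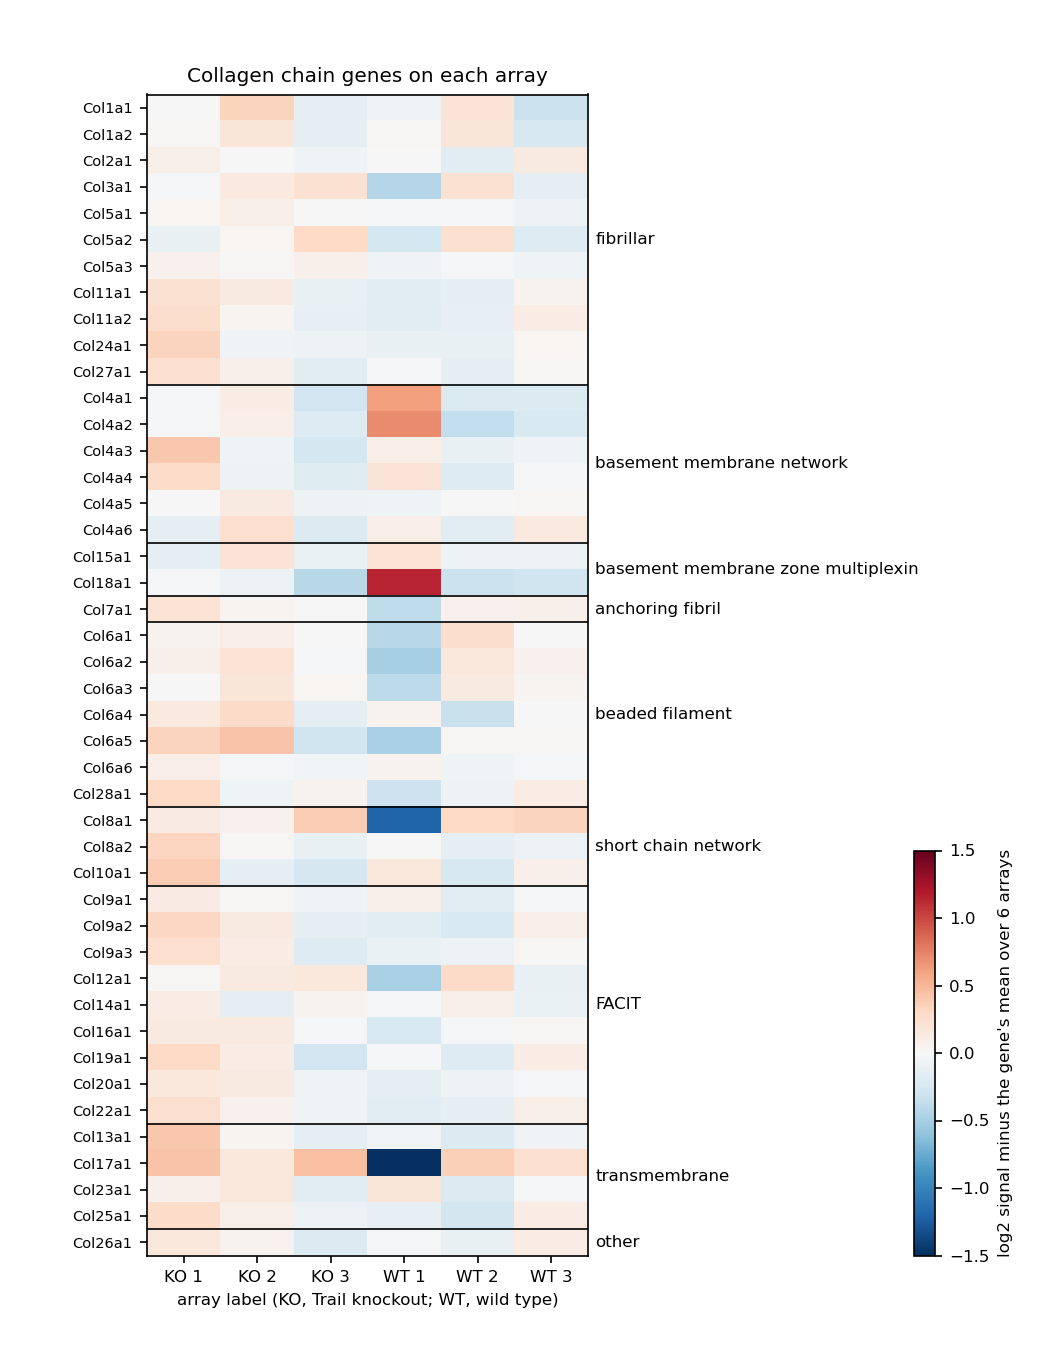
Each row is a collagen gene, grouped by class, and each column an array (KO, Trail knockout; WT, wild type). Colour gives the log2 signal minus the gene's own mean over the 6 arrays, and the strongest colours are those of Col18a1, Col8a1 and Col17a1 on the array labelled wild type 1, where Col17a1 lies beyond the end of the scale.

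Promoter windows of 4 genes are shown, because Col4a1 and Col4a2 were both highest on that array and lie head to head, while Col17a1 and Col8a1 were the members furthest below on it. Col18a1 has more than one window and is not shown. Sequences are RefSeq's on GRCm38.p6, from 250 bases before a transcript start to 50 bases from it on, read 5′ to 3′ on the gene's strand. Of the 44 members, 35 had a window and 38 windows were found. The window of Col4a1 is chr8:11312777-11313076 on the minus strand and that of Col4a2 is chr8:11312555-11312854 on the plus strand. Capitals mark the 78 bases that both windows share, read from opposite strands, and the starts lie 21 bases apart.
Col4a1: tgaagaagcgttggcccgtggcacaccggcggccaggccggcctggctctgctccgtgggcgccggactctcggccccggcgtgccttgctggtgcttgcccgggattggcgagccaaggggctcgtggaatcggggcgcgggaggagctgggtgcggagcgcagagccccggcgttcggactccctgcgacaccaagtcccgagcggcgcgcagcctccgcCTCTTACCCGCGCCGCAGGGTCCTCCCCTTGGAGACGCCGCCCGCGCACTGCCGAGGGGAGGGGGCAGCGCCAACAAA
Col4a2: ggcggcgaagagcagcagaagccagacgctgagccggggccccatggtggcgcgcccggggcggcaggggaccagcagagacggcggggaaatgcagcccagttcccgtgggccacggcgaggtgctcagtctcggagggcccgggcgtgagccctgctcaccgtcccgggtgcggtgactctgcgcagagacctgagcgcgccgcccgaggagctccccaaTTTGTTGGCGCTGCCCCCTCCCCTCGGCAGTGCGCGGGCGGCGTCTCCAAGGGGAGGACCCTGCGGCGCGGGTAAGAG
The window of Col17a1 is chr19:47691993-47692292 and that of Col8a1 is chr16:57754688-57754987, both on the minus strand. Capitals mark 3 motifs searched on both strands. These were TATAAA, the core of a TATA box, then CCAAT, which reads ATTGG on the other strand, and the GC box GGGCGG, which there reads CCGCCC.
Col17a1: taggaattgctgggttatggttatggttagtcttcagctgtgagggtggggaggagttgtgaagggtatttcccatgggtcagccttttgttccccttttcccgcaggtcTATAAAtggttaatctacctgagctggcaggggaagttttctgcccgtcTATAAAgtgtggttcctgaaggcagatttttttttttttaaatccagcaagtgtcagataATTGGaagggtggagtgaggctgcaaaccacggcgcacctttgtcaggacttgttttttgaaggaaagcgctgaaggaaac
Col8a1: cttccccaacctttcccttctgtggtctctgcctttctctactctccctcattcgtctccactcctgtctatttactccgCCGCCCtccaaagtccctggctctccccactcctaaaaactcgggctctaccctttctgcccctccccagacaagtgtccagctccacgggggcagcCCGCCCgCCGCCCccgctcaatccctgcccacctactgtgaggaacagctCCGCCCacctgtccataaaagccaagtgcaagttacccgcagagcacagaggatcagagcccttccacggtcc
The Col17a1 window holds TATAAA beginning 140 and 91 bases before the start and ATTGG beginning 31 bases before it. The Col8a1 window holds CCGCCC beginning 170, 73, 66 and 23 bases before the start, and none of the matches in these windows overlap. Over all 32851 windows, GGGCGG in either reading was found in 35.7%, CCAAT in 37.4% and TATAAA in 13.6%. Among the 38 collagen windows the shares were 60.5%, 34.2% and 13.2%, and a match is a description of the letters only.

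The levels of the type I chains overlapped between the genotypes. Col1a1 and Col1a2 encode the chains of type I collagen, the main fibril of the vessel wall. Col1a1 gave 10.83, 11.17 and 10.71 on the arrays labelled knockout 1, 2 and 3 and 10.77, 11.03 and 10.52 on those labelled wild type 1, 2 and 3. Col1a2 gave 10.60, 10.77 and 10.44 against 10.60, 10.77 and 10.35. Both genes were high on the arrays numbered 2 and low on those numbered 3 in either genotype, and the groups overlapped. On the array labelled wild type 1 the level minus the mean of the other 5 was -0.08 for Col1a1 and 0.02 for Col1a2.

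Col3a1, the chain of the type III fibrils of distensible tissues, gave 10.81, 10.97 and 11.06 in the knockout and 10.39, 11.06 and 10.70 in the wild type. Its lowest value was on the array labelled wild type 1, and the groups overlapped. Col5a2, a chain of the type V collagen that starts fibril assembly, gave 7.99, 8.13 and 8.40 against 7.83, 8.33 and 7.90. It too was lowest there. Col3a1 and Col5a2 are neighbours on mouse chromosome 1, with 24625 bases between their spans.

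The other type V chains varied little and did not overlap between the groups. Col5a1 gave 7.65, 7.71 and 7.64 in the knockout and 7.60, 7.61 and 7.55 in the wild type. Col5a3 gave 6.986, 6.938 and 7.004 against 6.877, 6.891 and 6.857. For both genes every knockout array lay above every wild-type array, with spans of 0.166 and 0.147 units over all 6 arrays. They were 2 of 40 tested members with all knockout arrays higher, beside a background of 1.31% of tested probe sets, and no member had all knockout arrays lower, beside 4.29%. Among the cartilage-type fibrillar chains, Col2a1 lay between 6.56 and 6.85, Col11a1 between 5.91 and 6.31 and Col11a2 between 6.21 and 6.64. Col27a1 lay between 6.65 and 7.04 and Col24a1 between 5.71 and 6.15. The array labelled knockout 1 was highest for the last 4 of these 5 genes. Cartilage markers had list medians of 5.06 to 5.50, with the chondrocyte matrilin gene Matn1 at 4.26 to 4.55 and Sox9 at 6.45 to 7.12. Of the 10 markers, 4 were highest and 3 lowest on the array labelled wild type 1, and Cytl1 gave 8.06 there and 6.05 to 6.38 elsewhere.

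The type IV chains split into pairs. Col4a1 and Col4a2 encode the chains of the network found in nearly all basement membranes. Col4a1 gave 8.10, 8.22 and 7.83 on the knockout arrays and 8.73, 7.90 and 7.91 on the wild-type arrays. Col4a2 gave 8.08, 8.19 and 7.91 against 8.81, 7.74 and 7.87. Both were highest on the array labelled wild type 1, by 0.74 and 0.85 units above the mean of the other 5, or 1.67-fold and 1.80-fold. Next were the arrays labelled knockout 2 and knockout 1, and the remaining 3 were low. The fat storage markers had medians of 11.03, 7.93 and 8.38 on these 3 arrays and 6.54 to 7.03 on the others, and the endothelial markers 8.84, 7.15 and 7.92 against 7.25 to 7.38. Their part in the type IV values was not tested.

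The remaining type IV chains did not follow that order. Col4a3 and Col4a4, chains of specialised membranes such as that of the glomerulus, overlap head to head by 113 bases in their annotated spans. Col4a3 gave 6.37, 5.90 and 5.70 against 6.06, 5.85 and 5.89, and Col4a4 gave 6.19, 5.85 and 5.74 against 6.11, 5.72 and 5.90. Both were highest on the array labelled knockout 1. The X-linked Col4a5 lay between 6.92 and 7.13 and Col4a6, a chain of smooth muscle basement membranes, between 6.35 and 6.81. Col4a6 was higher on the arrays labelled knockout 2, wild type 3 and wild type 1 (6.81, 6.70 and 6.65) than on the others, where it did not exceed 6.42.

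The multiplexins carry sugar chains and lie where basement membranes meet the matrix. Col18a1, whose end fragment is endostatin, gave 7.17, 7.11 and 6.77 on the knockout arrays and 8.33, 6.87 and 6.90 on the wild-type arrays. Its level on the array labelled wild type 1 was 2.58-fold above the mean of the other 5, and it was lowest on the array labelled knockout 3. It had 2 promoter windows, and the probe set cannot tell transcripts from them apart here. Col15a1, abundant around capillaries, fat and muscle, gave 7.91, 8.25 and 7.96 against 8.26, 7.98 and 7.98. Its values on the arrays labelled wild type 1 and knockout 2 lay together above the other 4.

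**Figure D2:**
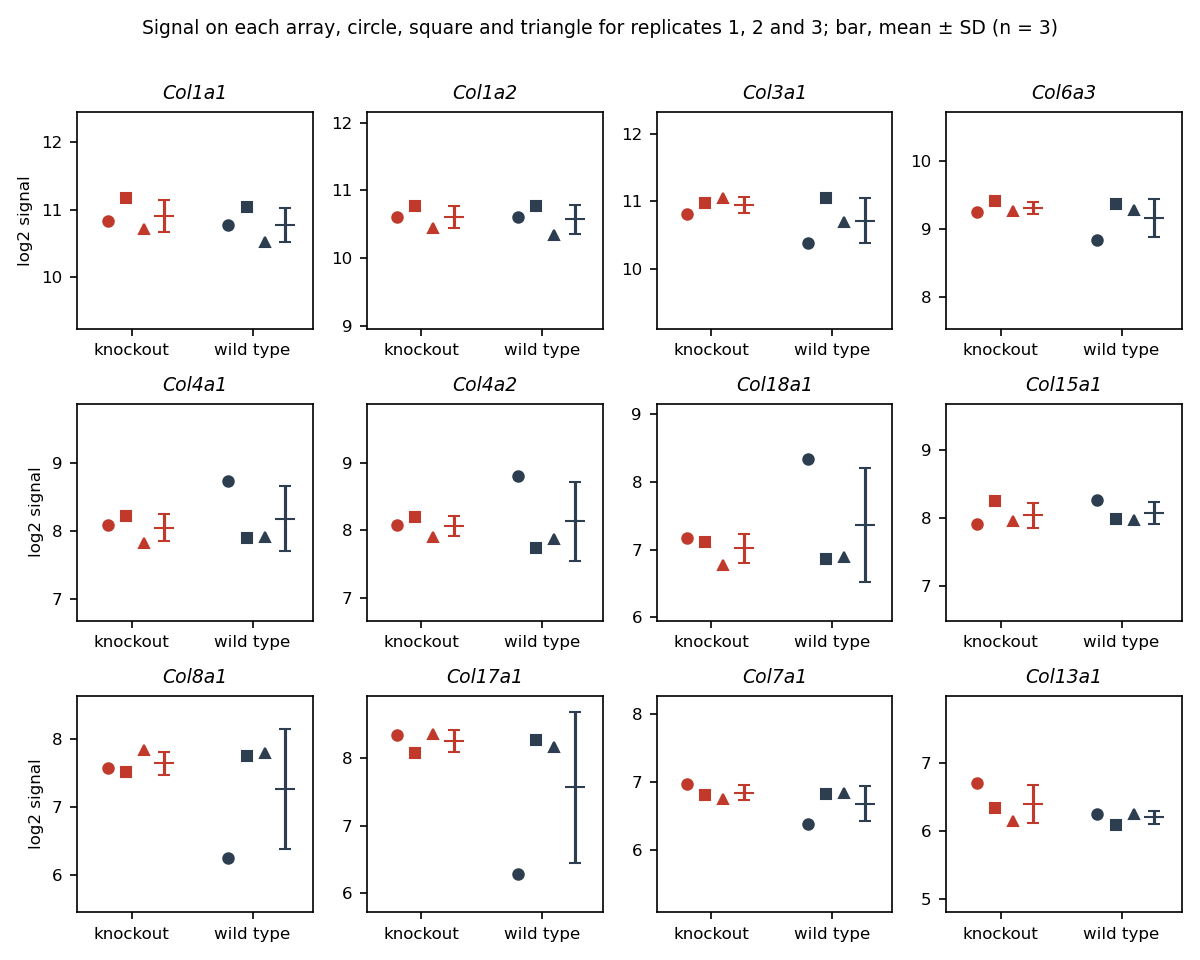
Log2 signals of 12 collagen genes on each array, with circle, square and triangle for replicates 1, 2 and 3 and bars for the mean ± SD (n = 3). Wild type 1 is the point that widens the wild-type bars of Col18a1, Col8a1 and Col17a1, and every panel spans the same number of log2 units.

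Collagens that anchor epithelia were lower on the array labelled wild type 1. Col17a1, a transmembrane collagen of hemidesmosomes, gave 8.34, 8.07 and 8.36 on the knockout arrays and 6.28, 8.26 and 8.15 on the wild-type arrays. Its level on the array labelled wild type 1 was 3.88-fold below the mean of the other 5, while those 5 spanned only 0.290 units. Col7a1, the anchoring fibril of skin and oesophagus, gave 6.98, 6.81 and 6.76 against 6.38, 6.83 and 6.84. It was lowest on the same array, by 0.46 units from the mean of the others. The laminin chain genes Lama3 and Lamb3, which encode parts of the laminin bound by hemidesmosomes, gave 5.70 and 6.03 there and at least 6.82 and 7.30 elsewhere. The squamous epithelium markers were low with them, and the keratin gene Krt5 gave 4.85 there and 10.98 to 11.39 elsewhere. The part of these cells in the values was not tested.

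Type VI collagen, which forms beaded filaments around cells, was also lower on that array. Col6a1 gave 9.20, 9.25 and 9.15 against 8.74, 9.42 and 9.16. Col6a2 gave 8.89, 9.01 and 8.79 against 8.31, 8.97 and 8.86, and Col6a3 gave 9.24, 9.41 and 9.26 against 8.84, 9.37 and 9.27. All 3 chains were lowest on the array labelled wild type 1, by 0.50, 0.59 and 0.47 units from the mean of the others, which spanned 0.170 to 0.274 units. Skeletal muscle markers were low there too, and their part was not tested.

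The other beaded filament genes were less uniform. Col6a5 gave 7.04, 7.13 and 6.41 in the knockout and 6.22, 6.72 and 6.72 in the wild type, and it had the widest span of all members over the 5 arrays other than wild type 1, at 0.723 units. Its second probe set gave 6.56, 6.58 and 6.25 against 5.27, 6.76 and 6.36. Both probe sets were lowest on the array labelled wild type 1, but the second was highest on that labelled wild type 2. Col6a6 lay between 6.74 and 6.91 and Col6a4 between 5.25 and 5.87. Col28a1, found around Schwann cells of peripheral nerve, lay between 6.44 and 7.05, with its lowest value on the array labelled wild type 1. Schwann cell markers had list medians of 6.28 to 6.80, with 6.32 on that array.

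Type VIII collagen, a short chain network made by vascular smooth muscle and endothelium, split by chain. Col8a1 gave 7.57, 7.52 and 7.84 on the knockout arrays and 6.25, 7.75 and 7.79 on the wild-type arrays. The array labelled wild type 1 was 2.73-fold below the mean of the other 5, which spanned 0.315 units. The smooth muscle marker list had its lowest median on that array, 9.38 against 9.77 to 10.51, with 3 of 10 markers lowest and 2 highest there. Des, the desmin gene that skeletal muscle also expresses, gave 7.86 against 11.18 to 11.61 elsewhere, and Acta2, smooth muscle actin, 12.62 against 12.27 to 12.63. All 10 endothelial markers were highest on the array labelled wild type 1, with a median of 8.84 against 7.15 to 7.92. The part of these cell types in the Col8a1 level was not tested. Col8a2 lay between 5.77 and 6.23 with its highest value on the array labelled knockout 1. Col10a1, a collagen of growth plate cartilage, lay between 4.70 and 5.34 and was not tested because it fell under the limit for dim signals.

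Among the FACIT collagens, Col12a1 and Col14a1 bind type I fibrils. Col12a1 gave 7.49, 7.60 and 7.62 against 6.98, 7.76 and 7.35 and was lowest on the array labelled wild type 1. Col14a1 gave 9.87, 9.62 and 9.81 against 9.73, 9.85 and 9.65, and its lowest value was on the array labelled knockout 2. The groups overlapped for both. Col16a1 lay between 6.73 and 7.10, Col20a1 between 6.31 and 6.60 and Col22a1, a collagen of the muscle and tendon junction, between 6.09 and 6.50, each with its lowest value on the array labelled wild type 1. The cartilage chain Col9a1 lay between 5.84 and 6.13 and Col9a3 between 6.39 and 6.84, while Col9a2 ran from 6.45 on the array labelled wild type 2 to 7.002 on that labelled knockout 1. Col19a1 lay between 5.02 and 5.61.

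The remaining transmembrane chains had their extremes elsewhere. Col13a1, found at the neuromuscular junction, gave 6.70, 6.34 and 6.15 in the knockout and 6.26, 6.09 and 6.25 in the wild type. It was highest on the array labelled knockout 1, as was Col25a1, with a range of 5.61 to 6.16. Col23a1 lay between 6.29 and 6.69 and was highest on the array labelled wild type 1. Col26a1 lay between 6.68 and 7.07, with its highest value on the array labelled knockout 1.

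That array was the highest for many dim members. Of the 44 genes, 21 were highest on the array labelled knockout 1, against 23.6% of all genes. Among the 26 members with a mean signal from 5 to 7, 19 were highest there (73.1%), against 30.7% of the 7087 genes in the same range. Among the 17 members with a mean of 7 or more, 1 was highest there, against 6.76% of such genes. The median of knockout 1 minus the mean of the other 5 arrays was 0.288 for the dim members and 0.101 for all genes of that range. After quantile normalization 19 of the 44 were highest there, against 15.6% of all genes. That background covers genes of every signal, and one limited to mean 5 to 7 was not counted after that normalization. In the deposited values, genes of mean 5 to 7 were more often highest on this array than brighter genes. The share among dim collagen genes was higher still. Lung epithelial markers were also highest on this array, and the part of any of these in the dim collagen levels was not tested.

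**Figure D3:**
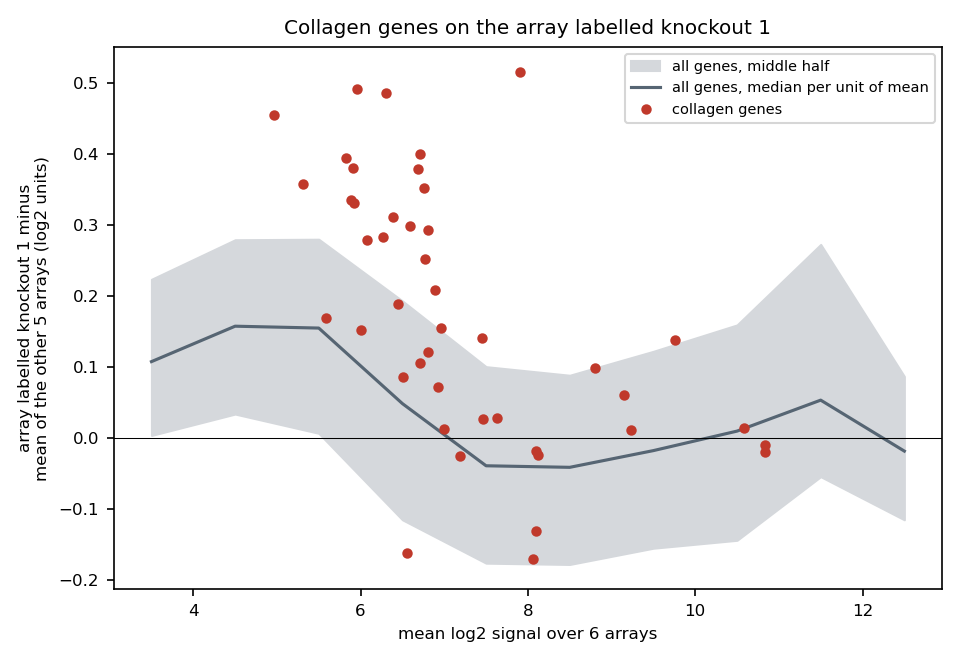
Each red point is a collagen gene, with its mean log2 signal over 6 arrays on the horizontal axis and knockout 1 minus the mean of the other 5 arrays on the vertical axis, in log2 units. The line gives the median and the band the quartiles of all genes per unit of mean, and most collagen points between 5 and 7 lie above the line.

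The comparison of genotypes asked which transcripts change in the aorta without Trail. No collagen gene passed the test. In limma, 0 of the 40 tested members passed at an adjusted p of 0.05, beside 0% of 14046 probe sets. Before adjustment 0 members and 89 probe sets lay under 0.05. The lowest adjusted p of a member was 0.921 in limma and the lowest unadjusted p 0.186. Differences are given as knockout minus wild type in log2 units.

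The 95% intervals show what size of change the 6 arrays leave room for. For 37 of the 40 tested members the interval lay within 1 unit, a 2-fold change, in either direction, and the exceptions were Col17a1, Col8a1 and Col18a1. Without the array labelled wild type 1 all 40 intervals lay between -0.454 and 0.671. In that fit Tnfsf10 did not separate the groups, at 4.90 and 4.85 in the wild type and 5.02, 4.48 and 4.09 in the knockout. Those narrower intervals describe a difference between labels and cannot be read as limits on an effect of Trail loss. For type I collagen the difference was 0.13 (SE 0.19, 95% interval -0.34 to 0.60) for Col1a1 and 0.03 (SE 0.16, -0.36 to 0.42) for Col1a2. Col3a1 differed by 0.23 (SE 0.19, -0.24 to 0.71), and by 0.07 without the array labelled wild type 1. The type V chains with groups that did not overlap differed by 0.08 (SE 0.09, Col5a1) and 0.10 (SE 0.09, Col5a3).

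The array labelled wild type 1 decided the largest differences. Col17a1 had means of 8.26 ± 0.16 (SD, n = 3) in the knockout and 7.57 ± 1.11 (SD, n = 3) in the wild type. Its difference of 0.69 (SE 0.55, 95% interval -0.66 to 2.04) became 0.05 without that array (95% interval -0.27 to 0.37). Col8a1 had 7.64 ± 0.17 and 7.26 ± 0.88 (SD, n = 3 each), and its difference of 0.38 became -0.13. Col18a1 had 7.02 ± 0.21 and 7.37 ± 0.84 (SD, n = 3 each), and its difference of -0.35 became 0.14. The basement membrane pair turned as well, Col4a1 from -0.13 (SE 0.27) to 0.14 (SE 0.14) and Col4a2 from -0.08 (SE 0.30) to 0.26 (SE 0.13). The type VI chains also turned. Col6a1 went from 0.09 (SE 0.20) to -0.09 (SE 0.12), Col6a2 from 0.18 (SE 0.21) to -0.02 (SE 0.12) and Col6a3 from 0.15 (SE 0.17) to -0.01 (SE 0.11). For Col4a2 the 5 arrays gave a 95% interval of -0.06 to 0.57 (limma adjusted p = 0.997). It gave 8.08, 8.19 and 7.91 on the arrays labelled knockout 1, 2 and 3, against 7.74 and 7.87 on wild type 2 and 3. The fat storage medians on these arrays were 8.38, 7.93 and 7.03 against 6.54 and 6.96, and their part was not tested.

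Across classes the differences were small and mostly positive. Of the 44 members, 38 were higher in the knockout and 6 lower, with a median of 0.117, while 49.8% of all genes were higher and their median was -0.0008. After median centring the split was 32 to 12, while 41.7% of all genes were higher. Without the array labelled knockout 1 it was also 32 to 12, with a median of 0.0449, while 42.7% of all genes were higher. Without the array labelled wild type 1 it was 39 to 5, with a median of 0.0869, while 53.1% of all genes were higher. By class the medians were 0.123 for 11 fibrillar genes, 0.178 for 7 beaded filament genes, 0.157 for 9 FACIT genes, 0.195 for 4 transmembrane genes, 0.147 for 3 short chain genes, -0.0188 for 6 type IV genes and -0.190 for the multiplexins. Without the array labelled wild type 1 the last pair turned, to 0.117 and 0.0990, and the others became 0.0865 for fibrillar, 0.0600 for beaded filament, 0.0901 for FACIT, 0.165 for transmembrane and 0.0720 for short chain genes, so the classes were closer together. Col26a1 differed by 0.01, and Col7a1 by 0.16 and, without the array labelled wild type 1, by 0.01. Among the members of lowest unadjusted p, Col20a1 differed by 0.16 (SE 0.10), Col16a1 by 0.16 (SE 0.12), Col11a1 by 0.17 (SE 0.13), Col25a1 by 0.19 (SE 0.15), Col9a2 by 0.20 (SE 0.16) and Col6a5 by 0.31 (SE 0.25). Without the array labelled wild type 1, Col6a5 became 0.14 and Col16a1 0.09. Of the 6 genes of low p just given, all but Col16a1 and Col6a5 were highest on the array labelled knockout 1. The remaining members of high signal were Col14a1 at 0.02 (SE 0.13), Col15a1 at -0.03 (SE 0.15) and Col5a2 at 0.15 (SE 0.19), and without that array Col15a1 turned to 0.06 and Col5a2 became 0.05.

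**Figure D4:**
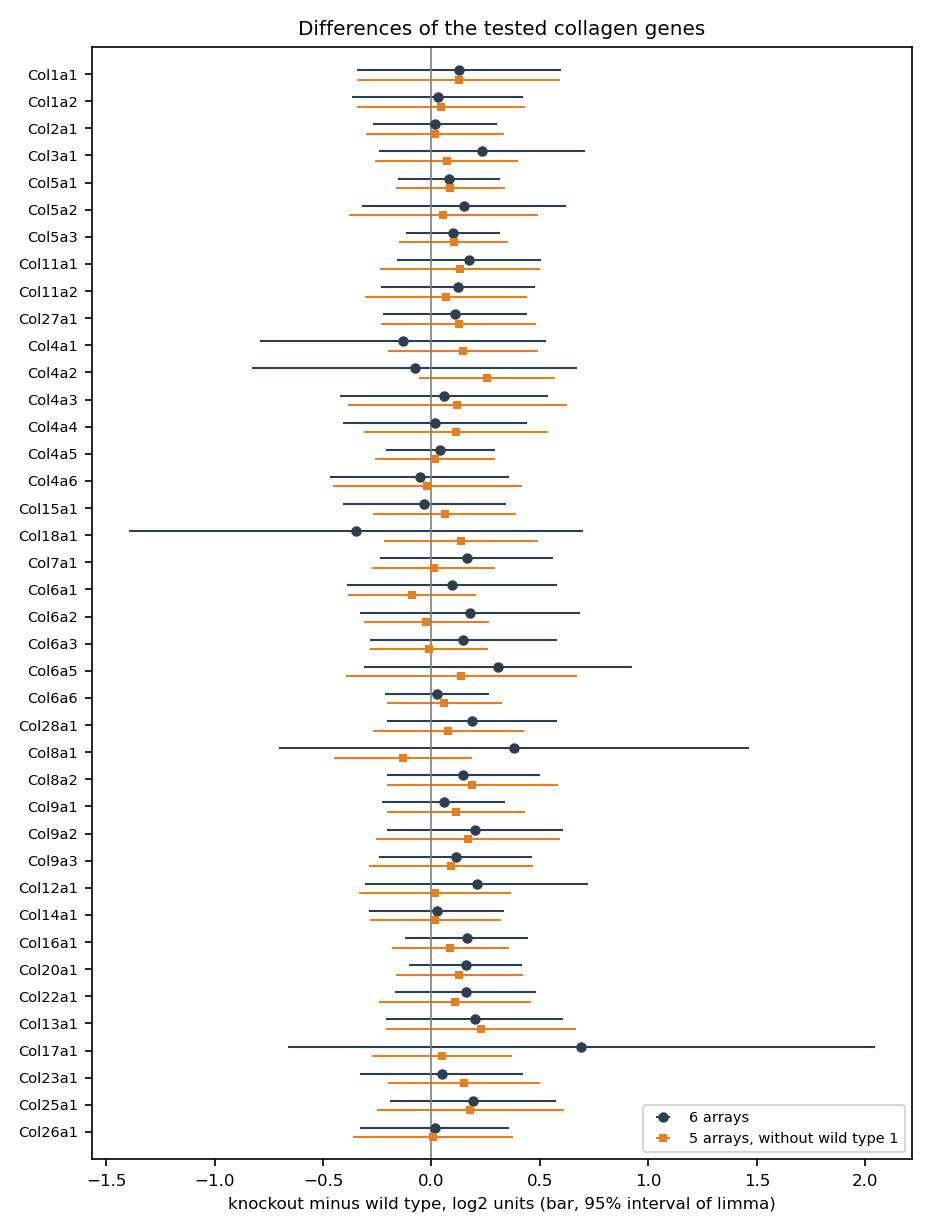
Points give knockout minus wild type in log2 units for the 40 tested collagen genes and bars the 95% interval of limma, for all 6 arrays and for the 5 without wild type 1. Every interval includes 0, and the widest on 6 arrays are those of Col17a1, Col18a1 and Col8a1.

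Genes that make, process, bind or remove collagen were compared in the same fit. Of 75 such genes found, 64 were tested and 0 passed at an adjusted p of 0.05 in limma. Before adjustment 0 lay under 0.05, and the 15 genes given next each had a limma adjusted p of 0.921. Of the genes for modification and folding, 7 were higher and 12 lower in the knockout, with Plod2, a lysyl hydroxylase, at -0.69 (SE 0.35), Fkbp14, a prolyl isomerase, at -0.24 (SE 0.12) and Plod1 at -0.34 (SE 0.21). Of the cleavage and cross-linking genes 4 were higher and 7 lower, with the lysyl oxidase-like genes Loxl3 at -0.39 (SE 0.16) and Loxl4 at 0.20 (SE 0.10), and the procollagen proteinase gene Adamts3 at -0.10 (SE 0.12). The fibril-associated genes had 4 higher and 11 lower, with the fibronectin gene Fn1 at -0.16 (SE 0.11), Comp at -0.21 (SE 0.22) and the periostin gene Postn at -0.13 (SE 0.16). Receptor and breakdown genes had 9 higher and 6 lower, with the integrin genes Itga2 at 0.23 (SE 0.12) and Itga11 at 0.42 (SE 0.28) and the collagen receptor kinase gene Ddr1 at 0.42 (SE 0.26). Basement membrane partners had 8 higher and 7 lower, with Lama3 at 0.56 (SE 0.35), Lamb3 at 0.60 (SE 0.41) and Lamb2 at -0.20 (SE 0.13).

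On the array labelled wild type 1, 3 of the 75 partner genes exceeded all other samples by more than 2-fold and 3 were lower by more than 2-fold, about the share among all genes (4.73% and 4.74%). Plod2 gave 9.26 there and 7.60 to 8.15 elsewhere, Pxdn, the peroxidasin that cross-links type IV collagen, gave 9.50 against 8.18 to 8.45, and Lox, a lysyl oxidase, gave 7.51 against 5.54 to 6.19. P4hb, a subunit of prolyl hydroxylase, was lower, at 9.94 against 11.02 to 11.28. Lama3 and Lamb3, given above, were the others below. Without that array most of the named differences shrank. Plod2 became -0.30, Plod1 -0.11, Fkbp14 -0.14 and Loxl3 -0.25, and Lama3 became 0.16, Lamb3 0.14 and Lamb2 -0.11. Itga11 became 0.14, Ddr1 0.13 and Fn1 -0.09, and Comp turned to 0.04. Lox turned from -0.18 (SE 0.51) to 0.42 (SE 0.15), with a limma unadjusted p of 0.030 and adjusted p of 0.997. It gave 6.15, 6.19 and 6.09 on the arrays labelled knockout 1, 2 and 3, against 5.91 and 5.54 on wild type 2 and 3. In that fit 1 of the 64 tested partner genes lay under 0.05 before adjustment and 0 passed after it. The splits of higher to lower then were 5 to 14 for modification, 3 to 8 for cleavage and cross-linking, 7 to 8 for fibril-associated genes, 10 to 5 for receptors and breakdown and 11 to 4 for basement membrane partners. The collagen chaperone Serpinh1 gave 8.69 there and 8.13 to 8.37 elsewhere. Of 9 fibroblast markers 3 were highest and 4 lowest on that array, and their median was 7.95 there and 7.31 to 7.80 elsewhere. That median was the level of Dpep1, which gave 5.27 to 6.70 elsewhere, while Tcf21 gave 4.96 there and 7.05 to 7.52 elsewhere. The markers therefore had no common direction.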

How the data were processed

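The deposited table held log2 values made by the authors, 1 column for each of the 6 arrays and 35399 probe sets. The base was read from the range, 1.55 to 13.96. Per the submitters' processing notes MAS5 was used, with no version or role; how probes were summarised and scaled is not stated in those notes. Values were used as deposited. The platform annotation lists 23410 probe sets, of which 21789 have 1 symbol and 1621 several; none was named from several, and the other 11989 were not used in the main test.

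The genotypes were compared by limma 3.58.1 under R 4.3.3, using group means, a trend in signal and a Benjamini-Hochberg threshold of 0.05 over the 14046 annotated probe sets above the lowest 40% by mean over all arrays. This left out Col6a4, Col10a1, Col19a1 and Col24a1. The fit was also run on simulated data whose spread was taken from the 5 arrays other than wild type 1. That run does not cover the spread that the array labelled wild type 1 adds.

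The members and lists were chosen with earlier results of these data known. Differences with statistics are given for the 12 members of highest mean, the 8 of lowest p and 3 genes of lowest p per partner list; Col5a1, Col5a3, Col8a1 and Col18a1 were added after their values were seen, as were Col7a1 and Col26a1. Single partner and marker genes named on single arrays were also chosen after their values were seen, as was the difference of Lox. The alternatives were other normalizations, filters, a pseudocount, moderation, array weights, a replicate block, other probe sets and leaving out arrays. The small number of arrays limits precision.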

Additional observations from a re-analysis of the deposited data

How the results depend on the processing

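Each count of 0 genes past the threshold in limma, over all probe sets, the collagen genes and the partner genes, stayed 0 in every alternative run. Members under 0.05 before adjustment were found in 1 of the 22 alternatives, without wild type 1 and knockout 3, namely Col4a2 at 0.33 and Col6a5 at 0.36 (limma adjusted p = 0.612 for both). The median difference of the 44 members stayed between 0.0398 and 0.191, from 0.117 in the main fit. It moved by less than the SD between arrays, 0.119. That SD is as large as the main median itself, so a fall to 0 would also have stayed within it. Without the array labelled knockout 1 the median difference was 0.0449, and without wild type 1 and knockout 1 it was 0.0398.

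Whether the replicate numbers pair the samples cannot be decided from 3 arrays per group. Deviations of same-numbered arrays correlated with r = 0.0946, -0.231 and 0.198 for numbers 1, 2 and 3, and knockout 3 correlated best with wild type 2 (0.410). With a replicate block 0 collagen genes passed. The median difference was 0.117, which the block cannot change because each group holds every number.

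Of the members with a difference given, 22 were refitted under every alternative (Col7a1 and Col26a1 were not followed singly). None of the 22 was past the threshold in any run, and 70 of 484 runs changed the sign of an uncalled difference. Runs that changed only the filter, the trend, the moderation, the block or the set of tested probe sets could not change a difference. They are counted in the 484, so the share of changed signs understates how easily signs turned. Of the 22 members, 7 kept their sign throughout. For Col5a1 and Col5a3, groups that do not overlap fix the sign when arrays are left out. On leaving out each array in turn, differences ran from -0.0281 to 0.0957 for Col14a1, -0.14 to 0.0615 for Col15a1, -0.60 to 0.14 for Col18a1, -0.0058 to 0.26 for Col1a1, -0.0856 to 0.13 for Col1a2, -0.27 to 0.14 for Col4a1, -0.28 to 0.26 for Col4a2, -0.0905 to 0.25 for Col6a1, -0.0243 to 0.31 for Col6a2, -0.0113 to 0.25 for Col6a3 and -0.13 to 0.64 for Col8a1. Wild type 1 set the end opposite in sign for Col15a1, Col18a1, Col4a1, Col4a2, Col6a1, Col6a2, Col6a3 and Col8a1. Array weights turned Col15a1 to 0.0126, Col18a1 to 0.15, Col4a1 to 0.14, Col4a2 to 0.20 and Col8a1 to -0.14. Median centring turned Col14a1 to -0.0111 and Col1a2 to -0.00618, and quantile normalization turned Col15a1 to 0.0162.

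Without wild type 1 and a further array, signs changed as follows. With knockout 1 left out, Col14a1 was at -0.0338, Col15a1 at 0.12, Col18a1 at 0.0602, Col4a1 at 0.12, Col4a2 at 0.24, Col6a1 at -0.0926, Col6a2 at -0.0206 and Col8a1 at -0.0937. With knockout 2 left out, Col18a1 was at 0.0908, Col1a1 at -0.0081, Col1a2 at -0.0398, Col4a1 at 0.0564, Col4a2 at 0.19, Col6a1 at -0.11, Col6a2 at -0.0821, Col6a3 at -0.0647 and Col8a1 at -0.0686. With knockout 3 left out, Col14a1 was at -0.00244, Col15a1 at 0.10, Col17a1 at -0.00379, Col18a1 at 0.26, Col4a1 at 0.26, Col4a2 at 0.33, Col5a2 at -0.0591, Col6a1 at -0.0643 and Col8a1 at -0.23. With wild type 2 left out, Col15a1 was at 0.0624, Col18a1 at 0.12, Col25a1 at -0.0132, Col4a1 at 0.14, Col4a2 at 0.19 and Col8a1 at -0.15. With wild type 3 left out, Col14a1 was at -0.0805, Col15a1 at 0.0607, Col17a1 at -0.00713, Col18a1 at 0.15, Col1a1 at -0.13, Col1a2 at -0.17, Col3a1 at -0.11, Col4a1 at 0.15, Col4a2 at 0.32, Col5a2 at -0.16, Col6a1 at -0.22, Col6a2 at -0.079, Col6a3 at -0.0581 and Col8a1 at -0.11. Leaving out 2 wild-type arrays leaves a lone sample that is assumed to vary like the others, and the cause of these changes was not tested.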
